A study of Arabidopsis thaliana with 6 samples.

Results

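The chloroplast genome encodes, beside the proteins of photosynthesis, parts of the machinery that expresses that genome and a few proteins of other plastid functions. The genes described here are these other protein-coding genes: ribosomal proteins (rpl and rps), subunits of the plastid RNA polymerase (rpo), the intron maturase matK, the protease subunit clpP, the acetyl-CoA carboxylase subunit accD, the cytochrome c assembly factor ccsA, the envelope protein cemA and the photosystem I assembly factors ycf3 and ycf4. They were chosen as the probe sets that the platform's annotation assigns to exactly 1 gene with a plastid locus tag and a symbol not beginning with psa, psb, pet, atp, ndh or rbc. This gave 26 probe sets, each for its own gene, of 22810 on the array. The RefSeq gene table for TAIR10.1 lists 34 plastid gene symbols outside the photosynthesis groups, so 8 symbols are not among them.

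Total RNA was measured on Affymetrix ATH1 arrays, which carry short oligonucleotide probe sets mostly for nuclear genes and some for plastid genes. The RNA came from whole seedlings of the Arabidopsis thaliana accession Col-0 at developmental stage 1.04, grown on 0.8% agar with MS medium at 20 degrees in 16 h of light and 8 h of dark. Ozone, an oxidising air pollutant, was given at 500 ppb for 6 h to the seedlings of 3 arrays, and the seedlings of the other 3 arrays received air scrubbed with charcoal and Purafil for the same time. All seedlings stood in sealed chambers on their growth plates, in a humidified gas stream, and were extracted directly after fumigation. The comparison asks how these plastid transcripts stood after ozone against scrubbed air. No seedling number per array is given in the labels, and nothing there says that replicates were separate cultures, so the p-values describe how these samples vary, and that variation may be technical.

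Plastid genes are mostly transcribed in long units that cover several genes and are then cut into smaller RNAs. In seed plants they are read by a bacterial-type polymerase, whose core subunits are encoded by rpoA, rpoB, rpoC1 and rpoC2 in the plastid itself, and by phage-type polymerases encoded in the nucleus. The plastid ribosome is likewise of mixed origin, with some proteins made from plastid genes and the others imported. Plastid transcripts lack the long poly(A) tails of nuclear messengers, and how the RNA was primed for labelling is not given in the sources used here. In bulk RNA from whole seedlings, fewer cells or plastids of a kind and less RNA in each cannot be told apart.

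Signals are on the linear scale of MAS5, and each array had a mean of 100 after 2% of its values were trimmed at either end. Of the 26 genes, 24 passed the filter on low signal (a mean log2 signal at or above the 40th percentile, a signal of 31.2). The polymerase subunit gene rpoB and the ribosomal protein gene rps14 did not pass. With so few arrays, the precision of all values is limited. For the array as a whole, limma with Benjamini-Hochberg adjustment over 13648 tested probe sets called 28.0% of them changed at an adjusted p under 0.05, 13.0% higher and 14.9% lower after ozone. The green shoot markers were present, with the antenna protein gene LHCB4.1 at 3072 ± 870.8 in control (mean ± SD, n = 3). The annotation used names 1 gene for 13513 of the 22810 probe sets, and 0 of the 3 flower organ markers were among these genes. Their absence could therefore not be checked.

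The replicate 1 arrays stood apart from the others of their group on many of these genes, so this is given before the comparison with ozone. In control and in ozone alike, 8 of the 24 tested genes had at least a 2-fold higher signal in replicate 1 than the geometric mean of replicates 2 and 3. Over all tested probe sets this held for 57 of 13648, or 0.418%. The opposite, at least 2-fold lower in replicate 1 of both groups, held for 0 of the 24 and for 2.73% of all tested probe sets.

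The gene rpl16, for a protein of the large ribosomal subunit, had the widest gap of the 24. Its signal was 1076.9, 128.5 and 111.6 in control replicates 1, 2 and 3, and 1138.2, 169.8 and 54.1 in ozone replicates 1, 2 and 3. Replicate 1 was thus 8.99-fold above the others in control and 11.9-fold in ozone, and the 2 replicate 1 arrays lay together, far above the remaining 4. Its neighbour rpl14, also of the large subunit, had 274.9, 35.8 and 36.7 in control and 235.1, 41.5 and 20.7 in ozone, in the same order of replicates. The gap was 7.58-fold in control and 8.02-fold in ozone, although away from replicate 1 these signals were close to the filter.

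The photosystem I assembly factor gene ycf3 had signals of 181.2, 25.9 and 40.7 in control and 141.2, 46.3 and 18.8 in ozone. The small subunit gene rps4 had 3086.1, 711.8 and 610.4 in control and 2068.1, 661.8 and 359.0 in ozone. For both genes replicate 1 was more than 4-fold above the rest in each group. The polymerase subunit gene rpoA, for the alpha subunit, had 580.1, 239.8 and 249.8 in control and 710.9, 195.3 and 163.7 in ozone, which is 2.37-fold and 3.98-fold above.

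The remaining genes with such a gap serve other functions. The signal of clpP, for a proteolytic subunit of the Clp protease that removes stromal proteins, was 2430, 914.1 and 1249.1 in control and 2296.9, 1076.9 and 705.7 in ozone. That of accD, for a subunit of the acetyl-CoA carboxylase that starts fatty acid synthesis, was 251.3, 92.7 and 113.2 in control and 281.4, 127.4 and 102.8 in ozone. For cemA, an inner envelope membrane protein, it was 904.8, 418.2 and 395.7 in control and 1066.3, 436.4 and 342.7 in ozone. In all 3 genes the replicate 1 arrays held the 2 highest values.

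At the other end, 8 genes had replicate 1 within 0.5 on the log2 scale of the other replicates in both groups, namely matK, rpl32, rpl33, rpoC2, rps15, rps18, rps19 and rps3. The large subunit gene rpl32 had 1057.1, 1014.5 and 1110 in control and 1101.2, 968.7 and 980 in ozone, so that replicate 1 was at 0.996-fold and 1.13-fold of the others. Replicate 1 was lower in both groups only for rpl22 of the large subunit. Its signals were 397.4, 693.1 and 747.2 in control and 518.7, 635.1 and 549.9 in ozone, so control replicate 1 alone was far below the rest.

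**Figure D1:**
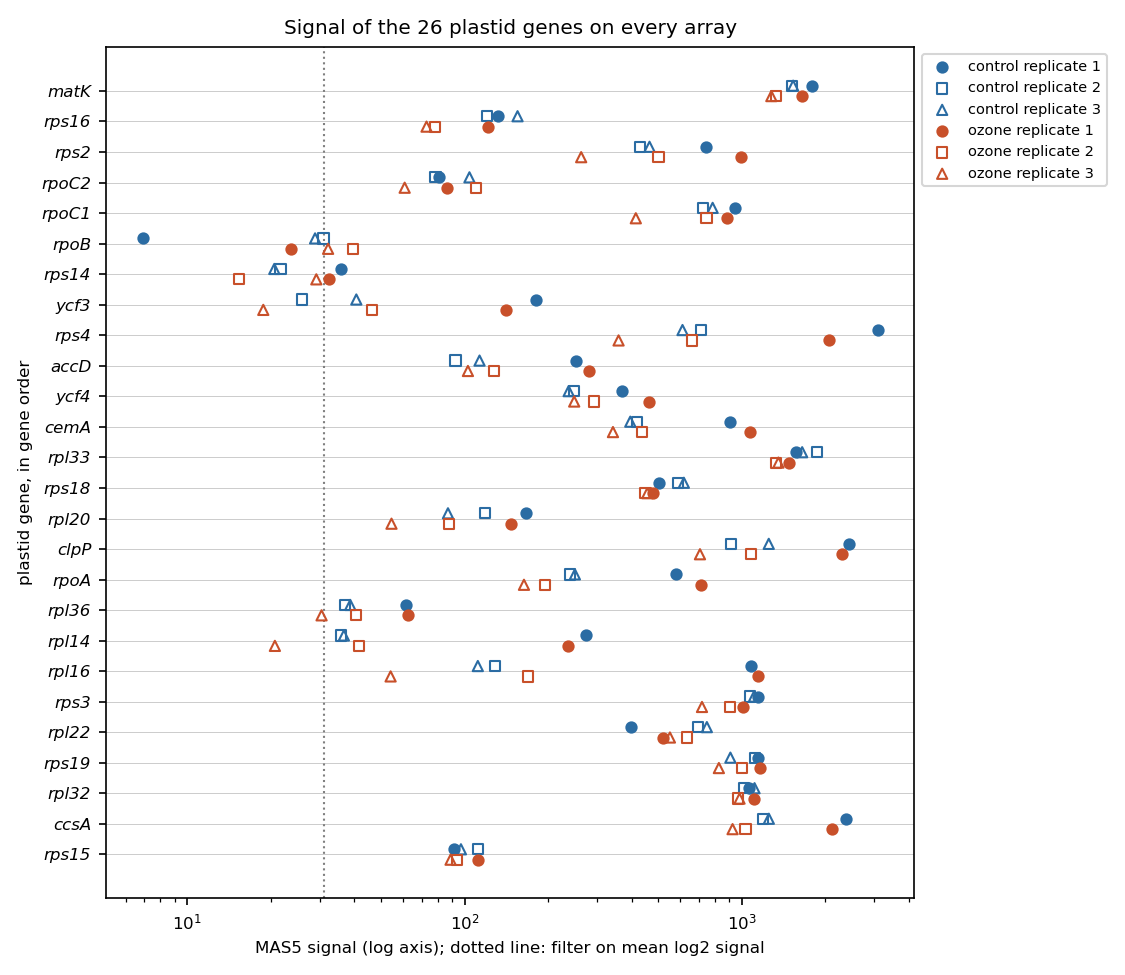
Each row is 1 of the 26 plastid genes in the order of the gene table, and each symbol is the MAS5 signal of 1 array on a log axis (blue, control; orange, ozone; filled circles, replicate 1; open squares, replicate 2; open triangles, replicate 3). The filled circles lie far to the right of the open symbols for rpl16, rpl14, ycf3 and rps4 and among them for rpl32 and rps15; the dotted line marks the signal of 31.2 used as a filter.

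The gap was not shared by all genes of 1 long transcription unit. This unit begins with rpl23 and covers, in gene order, rps19, rpl22, rps3, rpl16, rpl14, rpl36 and rpoA among the measured genes. Replicate 1 of control stood at 1.14-fold, 0.552-fold and 1.05-fold of the other controls for rps19, rpl22 and rps3. For rpl16 and rpl14, which follow directly, the values were 8.99-fold and 7.58-fold, and for rpl36 and rpoA they were 1.62-fold and 2.37-fold. The ozone arrays gave the same picture, with 1.28-fold, 0.878-fold and 1.25-fold for rps19, rpl22 and rps3 against 11.9-fold for rpl16. Within this unit, adjacent genes thus differed widely, and which probe positions lie behind this was not analysed here. Other units varied in this respect. In control, rpl33 and rps18 of 1 unit had 0.890-fold and 0.834-fold, and ycf4 and cemA of another had 1.52-fold and 2.22-fold. In the unit of rps14, the photosynthesis genes psaA and psaB had 0.186-fold and 1.80-fold.

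By role, 5 of the 10 tested genes that do not encode ribosomal proteins and 3 of the 14 tested ribosomal protein genes had the 2-fold gap in both groups. The median log2 offset of replicate 1 was 1.06 in control and 1.21 in ozone for the former, and 0.13 and 0.52 for the ribosomal protein genes. Over all 24 it was 0.65 and 0.80, against -0.02 and -0.04 over all tested probe sets. The difference between the roles was not tested. Probe sets assigned to 2 gene copies, given at the end, are not counted here. Among those for ribosomal proteins, both rps12 probe sets and rps7 had such a gap, and rpl2 and rpl23 did not. The offsets in control and ozone went together across the 24 genes (Pearson's r = 0.971, Spearman's rho = 0.965). All values of a group rest on the same 3 arrays, and genes are not independent replicates, so this is a description. Across all tested probe sets the same r was 0.747.

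The 40 tested photosynthesis genes of the plastid were alike in this respect. Among them 14, or 35.0%, had the 2-fold gap in both groups, beside 33.3% of the 24. Their median offsets were 0.69 and 0.75. The photosynthesis genes psaA and ndhH went the other way, at least 2-fold lower in replicate 1 of both groups, which none of the 24 did.

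**Figure D2:**
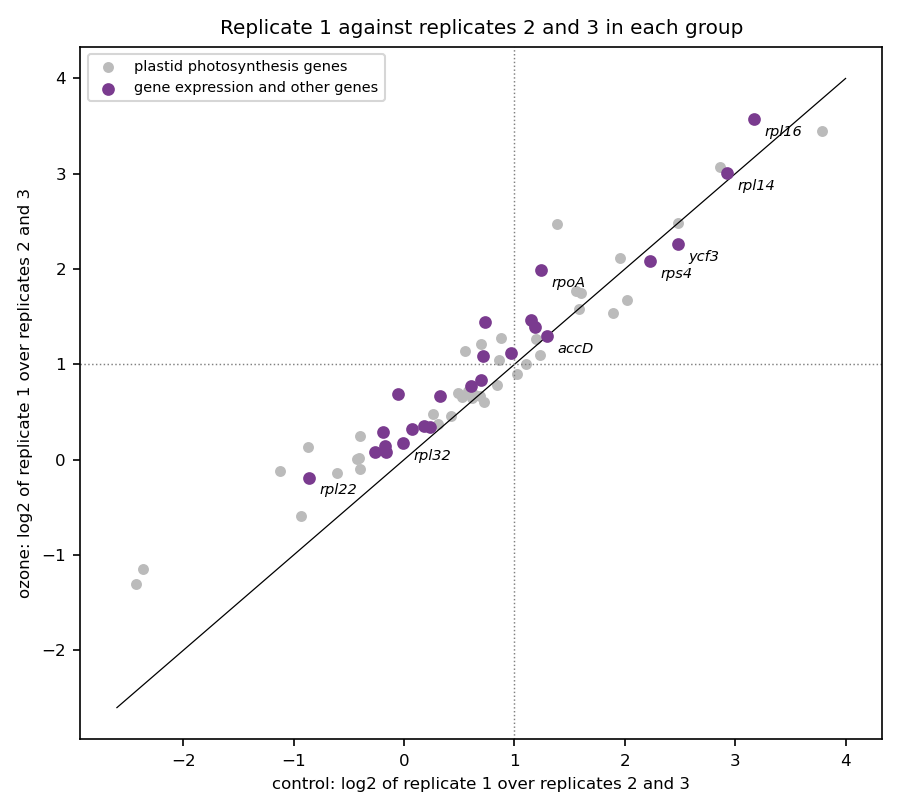
Each point is 1 tested plastid gene; the axes give the log2 ratio of the replicate 1 signal over the geometric mean of replicates 2 and 3, in control (x) and in ozone (y). Purple points are the 24 genes described here and grey points the 40 photosynthesis genes, the dotted lines mark a 2-fold gap and the solid line equal gaps; rpl16 lies at 3.17 and 3.57 and rpl22 at -0.86 and -0.19.

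Other measures of the arrays moved with replicate 1. The summed signal of the plastid genes described here made up 0.698% and 0.691% of all signal on the replicate 1 arrays of control and ozone, and 0.368% to 0.483% on the other 4. The actin control, whose 3' probe set is set against its 5' probe set as a measure of intact RNA, had a ratio of 5.30 in control replicate 1 and 6.51 in ozone replicate 1. It was 4.85 in ozone replicate 2 and 1.17 to 1.34 on the other 3 arrays. The GAPDH control had 2.03 and 1.48 on the replicate 1 arrays against 1.00 to 1.20 elsewhere. The ubiquitin control did not set the replicate 1 arrays apart, with 2.79, 1.90 and 2.26 in control and 2.20, 1.44 and 1.49 in ozone. The 25S ribosomal RNA control had signals of 14.4 and 27.9 against 4.60 to 9.40. The 4 tested green shoot markers had median offsets of 0.64 in control and 0.31 in ozone. The part of these measures in the plastid signals was not tested.

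Same-numbered arrays deviated together over all tested probe sets, with correlations of deviations from the group means of 0.747, 0.374 and 0.439 for numbers 1, 2 and 3. Control replicate 2 went with ozone replicate 3 (0.412) more closely than with its own number. Over the 24 plastid genes the correlation within number 2 was 0.591, and that of control replicate 2 with ozone replicate 3 was 0.891, so numbers 2 and 3 were not told apart in these genes. For this reason the comparison with ozone is given in 3 forms: over all 6 arrays, with the replicate number as a block, and without both replicate 1 arrays. Log2 fold changes are ozone minus control. The pairing of numbers 2 and 3, on which the block and all differences within a number rest, is assumed.

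Over all 6 arrays, 0 of the 24 tested plastid genes were called changed by limma, beside the 28.0% of all tested probe sets. Only rps16 had an unadjusted p under 0.05. The log2 fold changes ran from -0.61 for rps16 to 0.21 for ycf4, and 21 of 24 were below 0. Their median was -0.20, while that of all tested probe sets was -0.15, with 61.5% below 0. Quantile normalization gave a median of -0.11 with 19 below 0, and centring each array on its median gave -0.12 with 15 below 0. No gene was called with either scaling, under which 29.2% and 25.1% of all tested probe sets were called. The count was also 0 with 16 or 64 added to every signal (28.4% and 28.6%), without the filter (16.4%), with a filter at the 60th percentile (32.6%), and with eBayes without a trend (27.7%) or robust (28.0%). With 1 array left out it was 0, beside 27.0%, 17.6% and 16.7% without control replicates 1, 2 and 3 and 16.5% and 26.3% without ozone replicates 2 and 3, except that rps16 fell without ozone replicate 1 (23.7%). The sign of the smallest differences thus depended on the scaling: rps19 and rpl32 turned with quantile normalization, and rps2, rpoC2, rpl36, rpl22, rpl32 and rps15 turned with median centring. Single arrays decided more signs than the scaling did. Without control replicate 1 the number below 0 was 12 of 24 with a median of 0.01, and without ozone replicate 3 it was 9 of 24 with a median of 0.06. Without ozone replicate 1 it was 23 with a median of -0.46, and without any of the other 3 arrays it was 20 or 21. Leaving out 1 array gives the replicate 1 arrays unequal weight in control and ozone. The replicate 1 gap described above therefore enters these differences, and turned signs are no separate test of the ozone difference. The fit without ozone replicate 3 also drops the array with the lowest signal in 18 of the 24 genes. The part of each was not tested. The genes below 0 whichever array was left out were 7: matK, rpl20, rpl32, rpl33, rps16, rps18 and rps3.

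What these 6 arrays could show differed greatly from gene to gene. The standard error of the log2 fold change was 1.19 for rpl16, and its 95% interval ran from -2.93 to 2.55. For rpl32 the standard error was 0.15 and the interval -0.40 to 0.27. An interval that stayed within a 2-fold change in either direction was reached for 12 of the 24 genes. With the block this number rose to 23, and without replicate 1 it was 17. The exception with the block was rps16, whose interval ran from -1.03 to -0.19.

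With the replicate number as a block, 6 of 24 genes fell after ozone and 0 rose. In that fit 30.0% of all tested probe sets were called lower, and 2602 of 13648 were called higher. The 6 were ccsA, rpl20, rpl33, rps16, rps3 and rps4. Without both replicate 1 arrays 5 of 24 fell, namely ccsA, rpl33, rps16, rps18 and rps3, beside 20.1% of all tested probe sets. The share of the genes that fell was thus 25.0% and 20.8%, each near the background. In both fits the same 4 genes fell: ccsA, rpl33, rps16 and rps3. These calls depended on the scaling as well. Omission of replicate 1 with quantile normalization left 3 lower (rpoA, rps16 and rps18, background 19.9%), and with median centring it left 2 (rpl33 and rps16, background 17.6%). Combined with quantile normalization, the block left 4 lower (rpl20, rps16, rps18 and rps4, background 28.0%), and combined with median centring it left 0, with 2 at an unadjusted p under 0.05 (background 24.8%). Without the filter the block left 2 lower (rps16 and rps4), beside 16.7% of all 22746 probe sets.

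**Figure D3:**
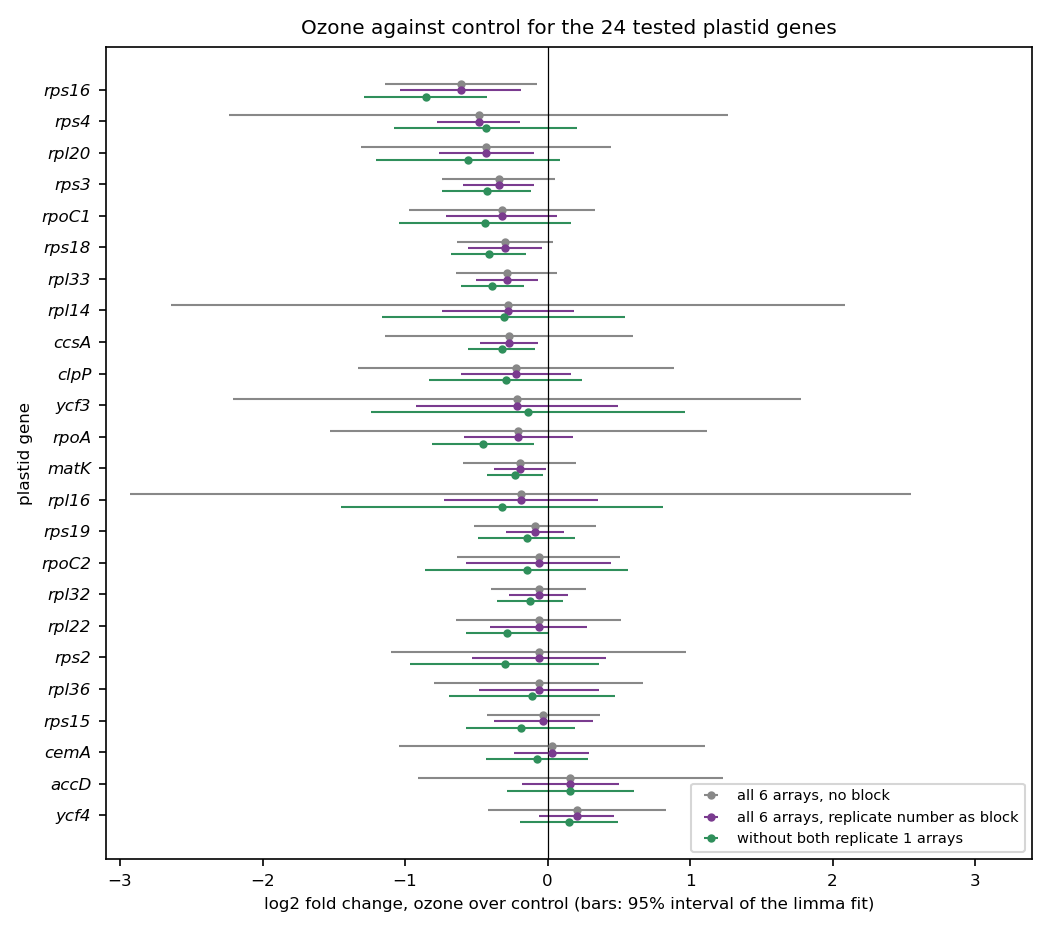
Log2 fold changes of ozone over control with 95% intervals of the limma fits for the 24 tested plastid genes, over all 6 arrays (grey), with the replicate number as a block (purple) and without both replicate 1 arrays (green). The grey bars span several log2 units for rpl16, rpl14, rps4 and ycf3 and shrink with the block, while the points of 21 genes lie below 0 in grey.

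Among the 7 tested genes for proteins of the small ribosomal subunit, all had a log2 fold change below 0, with a median of -0.30. With 1 array left out the number was lower, at 3 of the 7 without ozone replicate 3 (median 0.04) and 5 without control replicate 1 (median -0.09). The replicate 1 gap and, without ozone replicate 3, the mostly low signals of that array enter these values as well. The gene rps16, one of the few plastid ribosomal protein genes with an intron, had signals of 131.9, 120.2 and 155.2 in control and 121.6, 78.1 and 72.9 in ozone. Ozone replicates 2 and 3 lay below all controls, whereas ozone replicate 1 lay between them. Its mean was 135.8 ± 17.8 in control and 90.9 ± 26.7 in ozone (SD, n = 3), a log2 fold change of -0.61 (standard error 0.23, limma adjusted p = 0.0843). With the block the limma adjusted p was 0.0238, and without both replicate 1 arrays the change was -0.86 (limma adjusted p = 0.0125). It was also past the threshold without ozone replicate 1 alone (-0.84, limma adjusted p = 0.0191). The block combined with median centring gave a limma adjusted p of 0.0556.

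The gene rps3 had signals of 1144.5, 1065.7 and 1104.5 in control and 1010.3, 908.1 and 717.6 in ozone, so the groups did not overlap. The log2 fold change was -0.34, with a limma adjusted p of 0.172 over all arrays, 0.0278 with the block and 0.0431 without replicate 1. For rps18 the signals were 502.1, 587.5 and 617.3 in control and 477.6, 449.2 and 455.7 in ozone, again without overlap. Its difference was -0.30 (limma adjusted p = 0.166), it fell without replicate 1 (-0.41, limma adjusted p = 0.0270), and the block gave 0.0554. The geometric mean of control exceeded that of ozone 1.27-fold for rps3 and 1.23-fold for rps18.

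The rps4 signals given above overlapped between the groups, since both replicate 1 arrays exceeded all others. Within each number, however, ozone was below control, by -0.58, -0.10 and -0.77 on the log2 scale. The limma adjusted p was accordingly 0.673 over all arrays and 0.0128 with the block, at the same log2 fold change of -0.48. Without both replicate 1 arrays it was 0.246. Leaving out control replicate 1 alone or ozone replicate 3 alone turned the log2 fold change to 0.26 and 0.09 in the fit without a block. In both cases ozone replicate 1, with its high signal, weighs more than control replicate 1, so the replicate 1 gap enters these values. Ozone replicate 3 also held the lowest rps4 signal of all arrays. The remaining genes of the small subunit, rps2, rps15 and rps19, had log2 fold changes of -0.06, -0.03 and -0.09, and none of the 3 was called in any of the 3 fits. The rps2 signals show a wide spread that both groups share, at 741.5, 430.1 and 464.2 in control and 990.1, 500.1 and 263.2 in ozone. The untested rps14 had 35.8, 21.7 and 20.6 in control and 32.5, 15.4 and 29.2 in ozone, which overlapped.

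The 7 tested genes of the large subunit also had log2 fold changes below 0, with a median of -0.19, and 4 of the 7 remained below 0 without ozone replicate 3 or without control replicate 1. Signals of rpl33, a small protein of the large subunit, were 1559.8, 1862.8 and 1648.5 in control and 1475.6, 1323.9 and 1353.3 in ozone. The groups did not overlap, with means of 1690 ± 155.8 and 1384 ± 80.5 (SD, n = 3). The log2 fold change was -0.29 (limma adjusted p = 0.205), and it fell with the block (limma adjusted p = 0.0355) and without replicate 1 (-0.39, limma adjusted p = 0.0191). With quantile normalization the block gave -0.15 and a limma adjusted p of 0.272.

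The gene rpl20, which lies in a transcription unit with clpP, had 166.8, 118.8 and 87.1 in control and 147.4, 88.0 and 54.5 in ozone. Its groups overlapped, but ozone was below control within each number. The log2 fold change of -0.43 had a limma adjusted p of 0.434 over all arrays, 0.0379 with the block and 0.153 without replicate 1. For rpl36, rpl22 and rpl32 the differences were -0.06 each, and for rpl14 and rpl16 they were -0.28 and -0.19 with the wide intervals described above. These 5 genes were not called in any of the 3 fits.

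Of the 24 tested genes 3, all for ribosomal proteins (rpl33, rps18 and rps3), had every ozone array below every control array, and 0 had every ozone array above. Of all tested probe sets 27.5% had every ozone array lower and 18.2% had every ozone array higher. Restricted to replicates 2 and 3, ozone was below control without overlap in 10 of 24 and above in 0, against 45.7% and 28.3% of all tested probe sets.

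The RNA polymerase subunit genes showed no called change. The signals of rpoC1, for the beta' subunit, were 944.5, 721.5 and 783.9 in control and 886.4, 744.9 and 414.3 in ozone, a log2 fold change of -0.32 (limma adjusted p = 0.430). The low value in ozone replicate 3 stood apart from the other 5 arrays. For rpoC2, which encodes the beta'' subunit, the signals were 80.6, 78.6 and 104.1 in control and 86.6, 109.8 and 60.8 in ozone (log2 fold change -0.06). The difference for rpoA was -0.20 (limma adjusted p = 0.822), and without replicate 1 it was -0.45 (limma adjusted p = 0.0549, and 0.0433 with quantile normalization). The untested rpoB, for the beta subunit, had 6.9, 31.0 and 28.9 in control and 23.7, 39.7 and 32.2 in ozone, near or below the filter throughout.

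The intron maturase matK, which takes part in splicing of plastid group II introns, had 1795.6, 1514.8 and 1529.5 in control and 1645.5, 1322.5 and 1276.2 in ozone. Ozone was lower within each number, and the log2 fold change was -0.19 (limma adjusted p = 0.434, and 0.0740 with the block). In ccsA, which encodes a membrane protein that attaches haem to cytochromes of the thylakoid lumen, the signals were 2381.4, 1189.7 and 1249.9 in control and 2119.6, 1030.2 and 925.0 in ozone. Here too both replicate 1 arrays were the highest, and ozone was below control within each number. The log2 fold change of -0.27 had a limma adjusted p of 0.631 over all arrays, 0.0325 with the block, and -0.32 with 0.0443 without replicate 1. After quantile normalization the block gave -0.13 with a limma adjusted p of 0.307.

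The genes clpP, accD, cemA and ycf3 had log2 fold changes of -0.22, 0.16, 0.03 and -0.21, and none was called in any of the 3 fits. The photosystem I assembly factor gene ycf4 had 369.9, 248.4 and 237.2 in control and 460.5, 292.6 and 248.4 in ozone. It was the only one of the 24 with ozone above control within each of the 3 numbers. Its difference of 0.21 did not pass (limma adjusted p = 0.607, and 0.172 with the block). In the same transcription unit, cemA had 1066.3 in ozone replicate 1 against 904.8 in control replicate 1 and 342.7 against 395.7 in replicate 3, so its direction varied with the replicate.

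Same-numbered arrays gave unequal differences. The median log2 ratio of ozone over control across the 24 genes was -0.02 for replicate 1, -0.09 for replicate 2 and -0.53 for replicate 3. All tested probe sets had medians of -0.16, -0.19 and -0.10. Ozone was below control in 12, 13 and 23 of the 24 genes for numbers 1, 2 and 3, while for all tested probe sets the shares were 61.1%, 60.9% and 58.2%. The exception in the last pair was ycf4.

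Ozone replicate 3 held the lowest signal of all 6 arrays in 18 of the 24 genes, against 7.60% of all tested probe sets. Its median signal over the 24 genes was 303, compared with 443 in ozone replicate 2 and 424 and 430 in control replicates 2 and 3. The largest differences in that pair included ycf3 with -1.11, rps16 with -1.09, rpl16 with -1.04 and rpoC1 with -0.92. For the photosynthesis genes the medians were -0.10, -0.10 and -0.33, and 38 of 40 were lower in the last pair. The actin and GAPDH ratios of ozone replicate 3 were 1.17 and 1.00, each the lowest of the 6 arrays, while the ubiquitin ratio was lowest in ozone replicate 2 (1.44, against 1.49). Their part in the plastid signals was not tested.

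**Figure D4:**
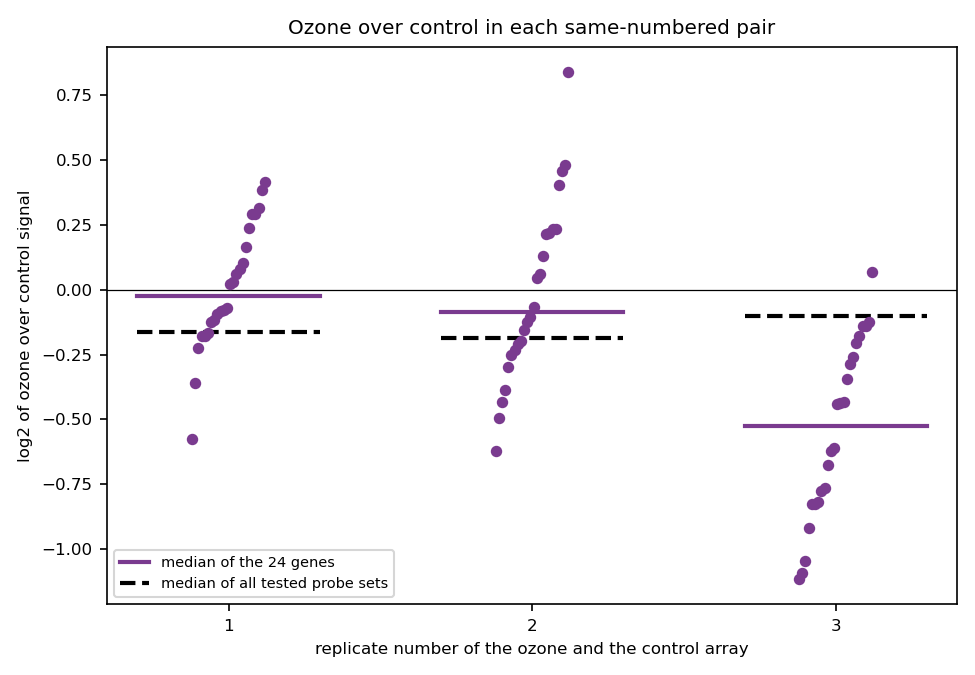
Each point is the log2 ratio of ozone over control signal of 1 of the 24 tested plastid genes between arrays of the same replicate number, sorted within each number; solid lines are the medians of the 24 genes and dashed lines those of all tested probe sets. The points of numbers 1 and 2 lie on either side of 0, and those of number 3 lie below 0 except for ycf4.

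Within each number, 8 of 24 genes (33.3%) had ozone below control in all 3 pairs, against 45.4% of all tested probe sets. The 8 were matK, rps16, rps4, rpl33, rps18, rpl20, rps3 and ccsA. Of the 14 tested ribosomal protein genes 6 were among them. Compared with the photosynthesis genes of the plastid, the median log2 fold change was -0.20 against -0.10, and 0 of 40 photosynthesis genes were called over all arrays by limma, with 1 at an unadjusted p under 0.05. With the block 6 of the 40 fell and 1 rose, and without replicate 1 a single gene, 1 of 40, fell. Among all tested probe sets 28.0% were called over all arrays. The shares called lower were 30.0% with the block and 20.1% without replicate 1. The block left 1 lower with quantile normalization and 0 with median centring, and 1 higher with either. The difference between both sets of plastid genes was not tested.

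Nuclear genes whose proteins work with these plastid gene products were read from 8 lists with 109 genes. The annotation used, which leaves many probe sets of the array without a gene name, gave a probe set naming them alone for 21. Of these 20 were tested. All 20 had log2 fold changes below 0, with a median of -0.49. Of all tested probe sets 61.5% were below 0, with a median of -0.15. Of the 20 genes 6 fell, 0 rose and 14 did not pass, beside the background of 14.9% lower and 13.0% higher. With the block 16 fell, beside 30.0%. After median centring 2 fell, beside 11.7%. With that scaling the Clp protease genes CLPR3 and CLPT1 and the malate dehydrogenase gene PNAD-MDH lay above 0, at 0.03, 0.04 and 0.07. In this annotation, the lists of sigma factors, of polymerase-associated proteins and of nuclear acetyl-CoA carboxylase subunits had 0 genes that a probe set names alone. The phage-type polymerase gene RPOTMP was below the filter.

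Of the 10 tested nuclear genes for plastid ribosomal proteins, 3 fell (PSRP1, RPL19A and RPL19B), and all 10 fell with the block. The shares called lower among all tested probe sets were 14.9% and 30.0%. The gene PSRP1, for a plastid-specific ribosomal protein, had 1338.2, 917.4 and 1011.4 in control and 702.2, 526.0 and 710.7 in ozone, without overlap. It fell by 0.75 on the log2 scale (standard error 0.20, limma adjusted p = 0.0290, and 0.0770 after median centring). The call was lost without control replicate 1, control replicate 3 or ozone replicate 2 (limma adjusted p = 0.0542 to 0.107). RPL19A and RPL19B, chosen after their values were seen, had -0.51 each, with limma adjusted p = 0.0495 and 0.0453, just past the threshold. Both were kept without control replicate 1 and lost without any other single array (limma adjusted p = 0.0538 to 0.179). With median centring 0 of the 10 fell, beside 11.7% of all tested probe sets. The median of the 10 was -0.46, and that of the 14 plastid-encoded ribosomal protein genes was -0.23. Of these 14, 0 were called over all arrays, beside 28.0% of all tested probe sets. With the block 5 of the 14 (35.7%) were lower, near the background of 30.0%. The difference between nuclear-encoded and plastid-encoded genes was not tested.

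Among 5 tested nuclear genes of the Clp protease 2 fell, CLPS1 and CLPT2, beside 14.9% of all tested probe sets. CLPS1, for an adaptor that brings proteins to the protease, had 474.3, 518.1 and 490.2 in control and 301.6, 324.4 and 280.5 in ozone. The groups lay far apart in comparison with their spread, and the change of -0.71 had a limma adjusted p of 0.00798. It stayed under the threshold with any 1 array left out (up to 0.0424). CLPT2, named after its values were seen, had -0.51 (limma adjusted p = 0.0332, and 0.117 after median centring). It was lost without any single array other than ozone replicate 1 (limma adjusted p = 0.0670 to 0.115). The plastid-encoded subunit gene clpP was not called.

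The nuclear gene CCS1, whose protein acts together with CcsA in cytochrome c assembly, had the largest change of these lists. Its signals were 233.8, 249.5 and 210.8 in control and 100.2, 85.8 and 113.7 in ozone. Every ozone array lay far below the lowest control, and replicate 1 did not stand apart (log2 offsets of 0.03 and 0.02). The log2 fold change was -1.22 (standard error 0.17, limma adjusted p = 0.00189, at most 0.0126 with any 1 array left out and 0.00259 after median centring). Other partners, CCDA, PYG7 and the NAD-dependent malate dehydrogenase gene PNAD-MDH, did not pass, at -0.51, -0.59 and -0.01. With the block CCDA and PYG7 fell (limma adjusted p = 0.0183 and 0.00599) and PNAD-MDH did not (0.956). CCDA was near the threshold over all arrays (limma adjusted p = 0.0552, and 0.0474 with quantile normalization). In the list of RNA processing factors only CAF1, a splicing factor for plastid introns, was tested, at -0.66 (limma adjusted p = 0.0923, and 0.00408 with the block).

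**Figure D5:**
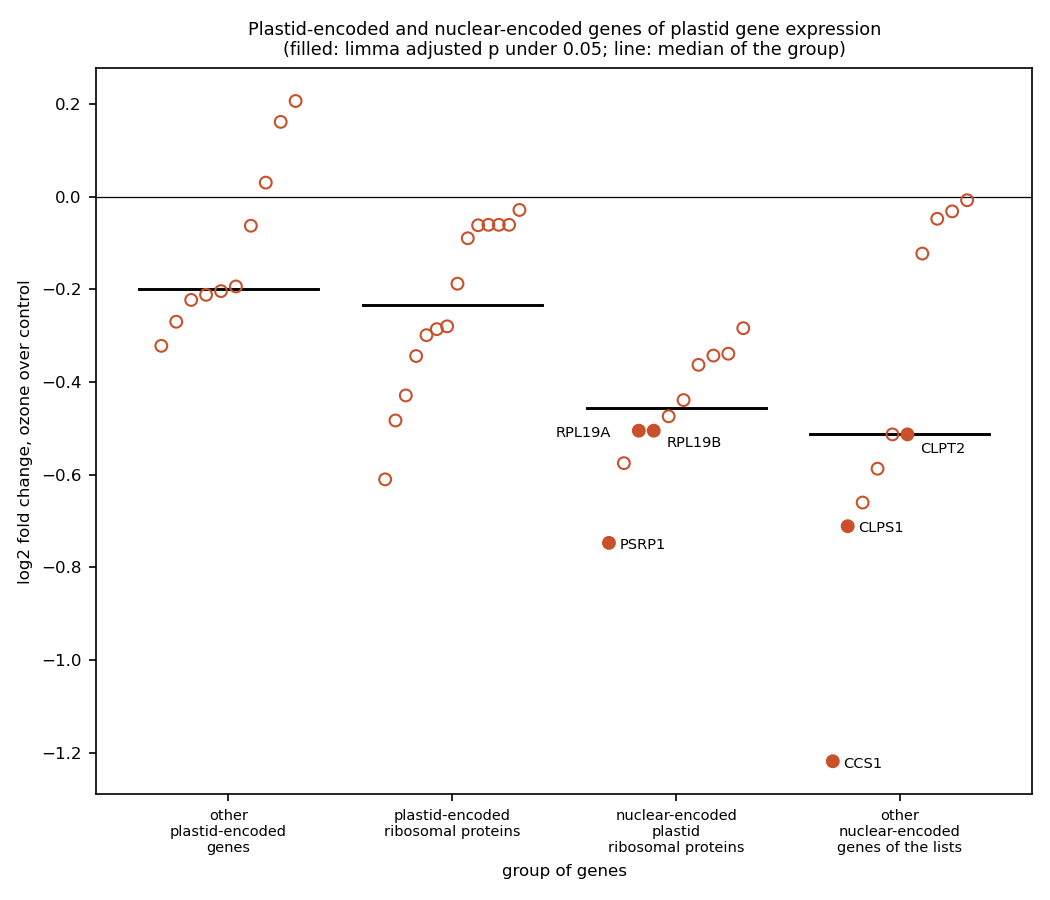
Log2 fold changes of ozone over control over all 6 arrays for plastid-encoded genes (left 2 columns: 10 other genes and 14 ribosomal protein genes) and nuclear-encoded genes of the lists (right 2 columns: 10 plastid ribosomal protein genes and 10 others). Points are genes, filled where the limma adjusted p was under 0.05, and lines are column medians; filled points occur among the nuclear-encoded genes, at -1.22 for CCS1, -0.75 for PSRP1 and -0.71 for CLPS1.

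Markers of cell types gave the following values beside these results. Of the 4 tested green shoot markers 1 fell, the Calvin cycle enzyme gene PRK (-0.97, limma adjusted p = 0.00671), and LHCB4.1, PSAN and RCA had -0.27, -0.46 and -0.39. Of 3 root markers EXPA7 fell (-0.94, limma adjusted p = 0.0101), at signals below 50 on every array, and it was lost without control replicate 3 (limma adjusted p = 0.0506). Neither guard cell marker and none of the 3 reference genes passed. With the block, as with the plastid and nuclear genes above, more fell: 4 of 4 green shoot markers, 2 of 3 root markers and 1 of 2 guard cell markers (AT1G22690, limma adjusted p = 0.0376), and 0 of 3 reference genes. Among all tested probe sets 14.9% were called lower over all arrays and 30.0% with the block. The log2 fold changes of the reference genes were 0.09 for PEX4, -0.13 for AT4G34270 and -0.21 for AT2G28390. Their part in the plastid results was not tested.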

How the data were processed

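The authors deposited a table of signal intensity by probe set and array, made with MAS5 (version not given) according to the submitters' processing notes. Groups and replicate numbers come from the sample titles. Signals were taken to log2 without a pseudocount and without further normalization, with 95 zeros, none of them in the plastid genes, replaced by the lowest non-zero signal on the same array. The 64 control probe sets and those under the 40th percentile of mean log2 signal were left out. The 3 ozone arrays were tested against the 3 control arrays, two-sided, with limma 3.58.1 under R 4.3.3 (lmFit, then eBayes with trend), adjusted by Benjamini-Hochberg over all 13648 tested probe sets, threshold 0.05. The fit without a block was tested on simulated data with independent noise on each array. A gap shared by the replicate 1 arrays, the block and the omission of replicate 1 were not simulated.

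The annotation names 1 gene for 13513 probe sets and several for 503; 13436 matched a locus of the TAIR10.1 gene table, which was used for names and gene order. For nuclear genes with several probe sets the brightest stood for the gene. All plastid genes were eligible to be named, with the smallest p in each direction per nuclear list, all tested markers and all reference genes. The genes and lists were chosen with earlier results of these data known, so they are not independent of them.

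The numbers were taken to pair the arrays because every same-numbered pair correlated above 0.1, although control replicate 2 correlated more with ozone replicate 3 (0.412) than within its number (0.374). Control replicate 3 with ozone replicate 2 gave 0.368. Deviations from a group mean sum to 0, so a gap shared by the replicate 1 arrays by itself raises all correlations among numbers 2 and 3. The bound therefore cannot decide how numbers 2 and 3 pair. The alternatives changed the scaling (quantile, median centring), the pseudocount (16, 64), the filter (none, 60th percentile), the eBayes options (no trend, robust), the block, or the arrays included. The block or the omission of replicate 1 combined with another setting was chosen after seeing the data.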

Additional observations from a re-analysis of the deposited data

How the results depend on the processing

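None of the 24 genes was called with quantile normalization, median centring, 16 or 64 added, no filter, the 60th percentile filter (21 genes kept), no trend or robust estimation. Signs turned in 2 genes with quantile normalization and 6 with median centring, in 1 without both replicate 1 arrays, and in 33 of 144 gene values with 1 array left out, none of them called. Among these were rpl16 (-0.19, and 0.87 without control replicate 1), ccsA (-0.27, and 0.05) and rps2 (-0.06, and 0.41 without ozone replicate 3). Such fits give the replicate 1 arrays unequal weight in control and ozone, so the replicate 1 gap enters their values. The fit without ozone replicate 3 also drops the lowest array of many of these genes. Called genes, all lower, numbered 6 with the replicate block, 4 with block and quantile normalization, 2 with block and no filter and 0 with block and median centring. Without both replicate 1 arrays they numbered 5, with quantile normalization 3 and with median centring 2. With each array left out in turn the count was 0 to 1, the 1 being rps16 without ozone replicate 1. All tested probe sets called changed numbered 3816, of which 2039 lower. With the block it was 6699 (4097 lower), with quantile normalization besides 6441 (3815 lower), with median centring 6185 (3384 lower, 2801 higher) and with no filter 6594 (3799 lower, 2795 higher). Leaving out 1 array gave 2246 to 3690 in all, 987 to 1933 lower and 1255 to 1768 higher. Without control replicate 2, control replicate 3 or ozone replicate 2 the totals were 2408, 2273 and 2246, with 1072, 987 and 991 lower; these fits have fewer samples. The cause of the other changes was not tested. Signals near the filter, as in rpl14, ycf3, rpl36, rpoB and rps14, limit what these arrays resolve.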

Other observations

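Plastid genes that lie in the inverted repeat have 2 copies, and 7 probe sets for 6 such symbols outside photosynthesis (rpl2, rpl23, rps12, rps7, ycf1 and ycf2) were assigned to both copies. They are given here as values only. One rps12 probe set, for a small subunit protein whose messenger is joined by trans-splicing, had 546.2, 65.4 and 76.5 in control replicates 1, 2 and 3 and 568.1, 96.7 and 52.1 in ozone. The other had 126.2, 14.2 and 23.4 in control and 156.1, 24.6 and 13.7 in ozone. In both, the replicate 1 arrays were far above the other 4, with log2 offsets between 2.79 and 3.09.

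The small subunit gene rps7 had 2028.1, 325.4 and 461.5 in control and 1842.7, 500.7 and 290.6 in ozone, with offsets of 2.39 and 2.27. For ycf1, linked to protein import into the plastid, the signals were 847.8, 432.5 and 452.2 in control and 769.4, 436.1 and 323.9 in ozone. The large subunit gene rpl2 had 1768.5, 1564.1 and 1265.2 in control and 1951.4, 1435.5 and 1131 in ozone. In these 3 genes the replicate 1 arrays held the 2 highest signals.

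For rpl23 the order differed, with 782.9, 1128.3 and 1181.1 in control and 1017, 1239.8 and 853.8 in ozone. The ycf2 probe set was dim, between 4.5 and 17.8 on all arrays. In all 7 probe sets the groups overlapped, and the log2 differences between ozone and control lay between -0.20 and 0.11.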
